A study of Homo sapiens with 12 samples.

Results

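The genes described here encode the subunits of the proteasome, its regulators and its dedicated assembly factors. They were chosen by name, as the protein-coding genes of the deposited count table whose symbol is PSM, a letter from A to G and a number. That rule gave 48 genes among the 58735 in the table. Enough reads for a test were present for 46 of them, among 15378 tested genes in all. The remaining pair were PSMA8, the alpha subunit known from testis, and PSMB11, the beta subunit of the thymus. PSMA8 had 0 counts in all 12 libraries, and in the shallowest library a count of 0 allows up to 0.213 CPM (the counts-per-million unit, relative to all counts of a library). PSMB11 had 0 to 10 counts per library.

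The RNA came from Ovcar8, a cell line derived from a high-grade serous carcinoma of the ovary, in 4 groups of 3 libraries. The groups were control, CCNE1 (CCNE1 overexpression), and CCNE1 overexpression combined with shTMLHE 1 or with shTMLHE 2, which are hairpins against TMLHE. CCNE1 encodes cyclin E1, which starts S phase with the kinase CDK2, and TMLHE encodes the first enzyme of carnitine synthesis. All groups were lentivirally transduced and selected in puromycin. No group with CCNE1 overexpression and a non-targeting hairpin is labelled, so the loss of TMLHE and the carriage of a hairpin cannot be told apart. The promoter that drives CCNE1 is not given in the labels, nor whether a group is 1 clone. Whether the 3 libraries of a group were grown apart is not labelled, and their spread, on which all p-values rest, may be technical. In bulk RNA, fewer cells with a transcript and less of it per cell cannot be told apart.

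The proteasome degrades proteins marked with ubiquitin. Its barrel, the 20S core, stacks outer rings of alpha subunits (PSMA genes), which gate the entrance, on inner rings of beta subunits (PSMB genes), among which PSMB5, PSMB6 and PSMB7 carry the peptide-cutting sites. The 19S regulatory particle caps the barrel: its ATPases (PSMC genes) unfold substrates, and its non-ATPase subunits (PSMD genes) bind and remove ubiquitin. After interferon many cells build an immunoproteasome, in which PSMB8, PSMB9 and PSMB10 replace PSMB5, PSMB6 and PSMB7, and the alternative cap PSME1 with PSME2 is made alongside it.

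The promoters of the immunoproteasome genes and of that cap are shown first, because these genes form 1 inducible set and 4 of the 5 hold the same short sequence. Each stretch holds 100 bases from the RefSeq promoter table (GRCh38.p14), read 5′ to 3′ on the strand of the gene. Capitals mark a match on either strand to GAAA, any 2 bases and GAAA again, the core letters of the interferon-stimulated response element. PSMB8 is shown from chr6:32844023-32844122 (minus strand), PSMB9 from chr6:32854117-32854216 (plus), PSMB10 from chr16:67936826-67936925 (minus), PSME1 from chr14:24136119-24136218 (plus) and PSME2 from chr14:24146586-24146685 (minus).
PSMB8: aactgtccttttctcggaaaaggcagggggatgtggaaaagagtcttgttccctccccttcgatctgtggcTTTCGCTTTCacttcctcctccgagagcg
PSMB9: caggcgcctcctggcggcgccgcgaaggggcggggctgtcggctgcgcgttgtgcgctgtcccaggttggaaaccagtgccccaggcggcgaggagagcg
PSMB10: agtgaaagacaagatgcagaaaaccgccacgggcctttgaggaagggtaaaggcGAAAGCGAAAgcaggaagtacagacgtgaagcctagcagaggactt
PSME1: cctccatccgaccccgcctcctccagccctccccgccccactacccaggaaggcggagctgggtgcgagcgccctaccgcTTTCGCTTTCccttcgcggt
PSME2: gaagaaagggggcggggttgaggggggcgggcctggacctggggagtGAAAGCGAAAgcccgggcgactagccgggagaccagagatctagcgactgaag

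A promoter window of 300 bases, from 250 before to 50 after a start site, was on hand for 42 of the 48 members. In the 4 stretches with capitals the matched letters were the same run, which lies on the opposite strand in PSMB8 and PSME1. The first base of the match was 4 bases before the start site of the window shown in PSMB8. It was 21 before the start site in PSMB10 and 28 before it in PSME2, and 6 after it in PSME1. The exact run occurred in 5 of 42 members, the fifth being PSMG4, and in 34 of all 27305 genes with a window (0.125%). The run was read from the members' own matches, so these counts are no independent comparison. The looser motif with any 2 bases in the middle occurred in 16.7% of the members and 4.38% of all genes. PSMB9 had no match in its window. The letters TGACNNNGC, part of the antioxidant response element that the factor encoded by NFE2L1 can bind, occurred in 35.7% of the members and 16.1% of all genes, and TGAGNNNGC in 31.0% and 21.6%. CCAAT occurred in 47.6% and 39.7%, and TTCNNNGAA, the gamma-activated site, in 19.1% and 9.38%. PSMB8 has 2 windows, with different start sites. Both interferon motifs were found in the window from which its stretch is shown, and neither in the other. A match of letters is a description only.

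Totals ran from 14054100 to 21457500 counts per library. CCNE1 was measured at 33.1 ± 1.28 CPM (mean ± SD, n = 3, library sizes scaled by TMM) in control and at 1001 ± 34.0 with CCNE1. TMLHE was at 15.7 ± 2.69 CPM with CCNE1, 0.956 ± 0.286 with shTMLHE 1 and 0.482 ± 0.241 with shTMLHE 2. The epithelial keratin genes KRT7, KRT8 and KRT18 and the Müllerian factor PAX8 were present in all groups, whereas MUC16 had 0 counts and WT1 was under 1 CPM in every library. Leukocyte markers summed to 0.801 to 2.90 CPM per library, with PTPRC and CD3E at 0 in all control, CCNE1 and shTMLHE 1 libraries. Endothelial markers summed to at most 2.83 CPM. Of 3 fibroblast markers DCN was at 0 in every library and LUM under 1 CPM, while COL1A1 was at 879 CPM in control, 605 with CCNE1, 1551 with shTMLHE 1 and 1229 with shTMLHE 2, and the part of such cells in the results was not tested. The scaling between libraries bears on each hairpin result below. TMM factors, which set the middle of the gene distribution equal, were 0.849 ± 0.00291 with CCNE1, 1.12 ± 0.00773 with shTMLHE 1 and 1.23 ± 0.00354 with shTMLHE 2. Scaling by total counts instead raised the median log2 fold change of all tested genes from 0.03 to 0.43 with shTMLHE 1 and from 0.03 to 0.56 with shTMLHE 2. Under it 75.9% and 70.7% of all called genes were higher, whereas with TMM 4673 of 9338 and 5653 of 11224 were. Log2 fold changes below use TMM and are relative to the middle of all genes.

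Together the 48 genes took 0.625 ± 0.00466% of all counts in control and 0.635 ± 0.00499% with CCNE1. The share was 0.622 ± 0.00559% with shTMLHE 1 and 0.668 ± 0.00294% with shTMLHE 2. Per kilobase of exon, control levels differed widely among genes whose products are built into the same particle. The length used was that of all annotated exons of a gene, not that of an expressed transcript. It was 1179 bases for PSMB3 and 6506 for PSMA6, for example, and levels per kilobase and ratios between genes depend on it. PSMB7 (274 ± 1.05 CPM per kilobase), PSMB3 (249 ± 7.84) and PSMB5 (236 ± 2.47) were highest. In the α ring PSMA7 reached 168 ± 0.447 CPM per kilobase, while PSMA2 was at 0.124 ± 0.0435 and PSMA6 at 0.428 ± 0.0293. The lowest values coincided with sequence that is shared with other annotated genes: 49.4% of the 50-base windows of PSMA2 and 53.4% of those of PSMA6 also lie in an overlapping gene. The same held for PSMC1 (77.2%, mostly NRDE2 on the other strand), PSMD7 (37.7%), PSMB10 (36.7%), PSMD9 (34.5%), PSMA1 (29.8%) and PSMB8 (24.3%, PSMB8-AS1 on the other strand), and 23.7% of PSMC6 windows recur elsewhere in the genome. Counts of these 9 genes are therefore uncertain, since no source names the counting program or says whether it used strand. PSMA2 rests on 5 to 52 counts per library.

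To see what cyclin E1 overexpression did to the proteasome genes, CCNE1 was compared with control. Of 46 tested members 24 were higher and 7 lower at an edgeR quasi-likelihood adjusted p under 0.05, against 25.1% higher and 19.1% lower among all tested genes (44.2% called in all). The members' median log2 fold change was 0.15, beside 0.05 for all genes. The rises were small and spread over the particle. They took in 5 of 7 α ring genes, 4 of 6 19S ATPases and 3 of 8 lid genes, whereas none of the immunoproteasome genes rose and PSMB8 fell. The core and the regulatory particle had nearly the same median, 0.17 each.

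PSMC6, an ATPase of the cap, rose. It was at 13.9, 13.2 and 11.7 CPM in control and at 17.9, 24.8 and 24.6 with CCNE1, so that no control library reached the lowest CCNE1 library. Its log2 fold change was 0.80 ± 0.11 (SE, adjusted p = 1.93e-07). PSMD14, the deubiquitinase of the lid, read 26.1, 26.1 and 20.8 CPM in control and 43.5, 36.0 and 39.0 with CCNE1, a log2 fold change of 0.69 ± 0.09 (adjusted p = 1.96e-08). PSMD1, the scaffold subunit of the base, rose from 88.1 ± 7.98 to 139 ± 7.52 CPM (log2 fold change 0.66 ± 0.06, adjusted p = 2.17e-12). PSMA2 had the largest fold change, 1.15 ± 0.46 (adjusted p = 0.0412), from 0.836, 0.396 and 0.745 to 1.27, 1.87 and 1.27 CPM. That call was lost on leaving out any of 6 libraries, for example CCNE1 replicate 2 (0.93, adjusted p = 0.140) or control replicate 2 (0.90, adjusted p = 0.150).

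The falls were smaller. PSMC5, another ATPase, read 205, 191 and 201 CPM in control and 161, 151 and 147 with CCNE1, which do not overlap (log2 fold change -0.38 ± 0.05, adjusted p = 2.32e-08). PSMD2, the large base scaffold and the member with the most counts, went from 1059, 1007 and 1069 CPM to 874, 866 and 895 (-0.25 ± 0.03, adjusted p = 9.28e-09). PSMB8 went from 103, 101 and 107 CPM to 83.6, 81.1 and 86.2, again without overlap (-0.31 ± 0.06, adjusted p = 7.78e-05). Its neighbour PSMB9 was at 28.1 ± 2.53 CPM in control and 24.9 ± 2.48 with CCNE1 (adjusted p = 0.226), and PSMB10 at 5.01 ± 0.363 and 4.56 ± 1.26 (adjusted p = 0.646).

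GC content moved with this comparison, as described further on. With the trend of each library over GC content and gene length removed, 17 members were higher and 6 lower, and 13 of the 24 rises were still called. PSMC6 (0.40, adjusted p = 0.00324), PSMC5 and PSMD2 kept their calls, while PSMD14 (0.20, adjusted p = 0.0825), PSMA2 (0.80, adjusted p = 0.184) and PSMB8 (-0.11, adjusted p = 0.147) did not. Of the α ring genes that had risen, only PSMA7 (0.31) was still called as higher. PSMA3 (0.19, adjusted p = 0.188) and PSMA4 (0.13, adjusted p = 0.116) were not called, and PSMA5 turned to -0.15 (adjusted p = 0.00559). Called as higher under all 5 scalings tried were 13 members, beside 15.0% of all genes, and as lower PSMC5 and PSMD2, beside 12.8%.

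**Figure D1:**
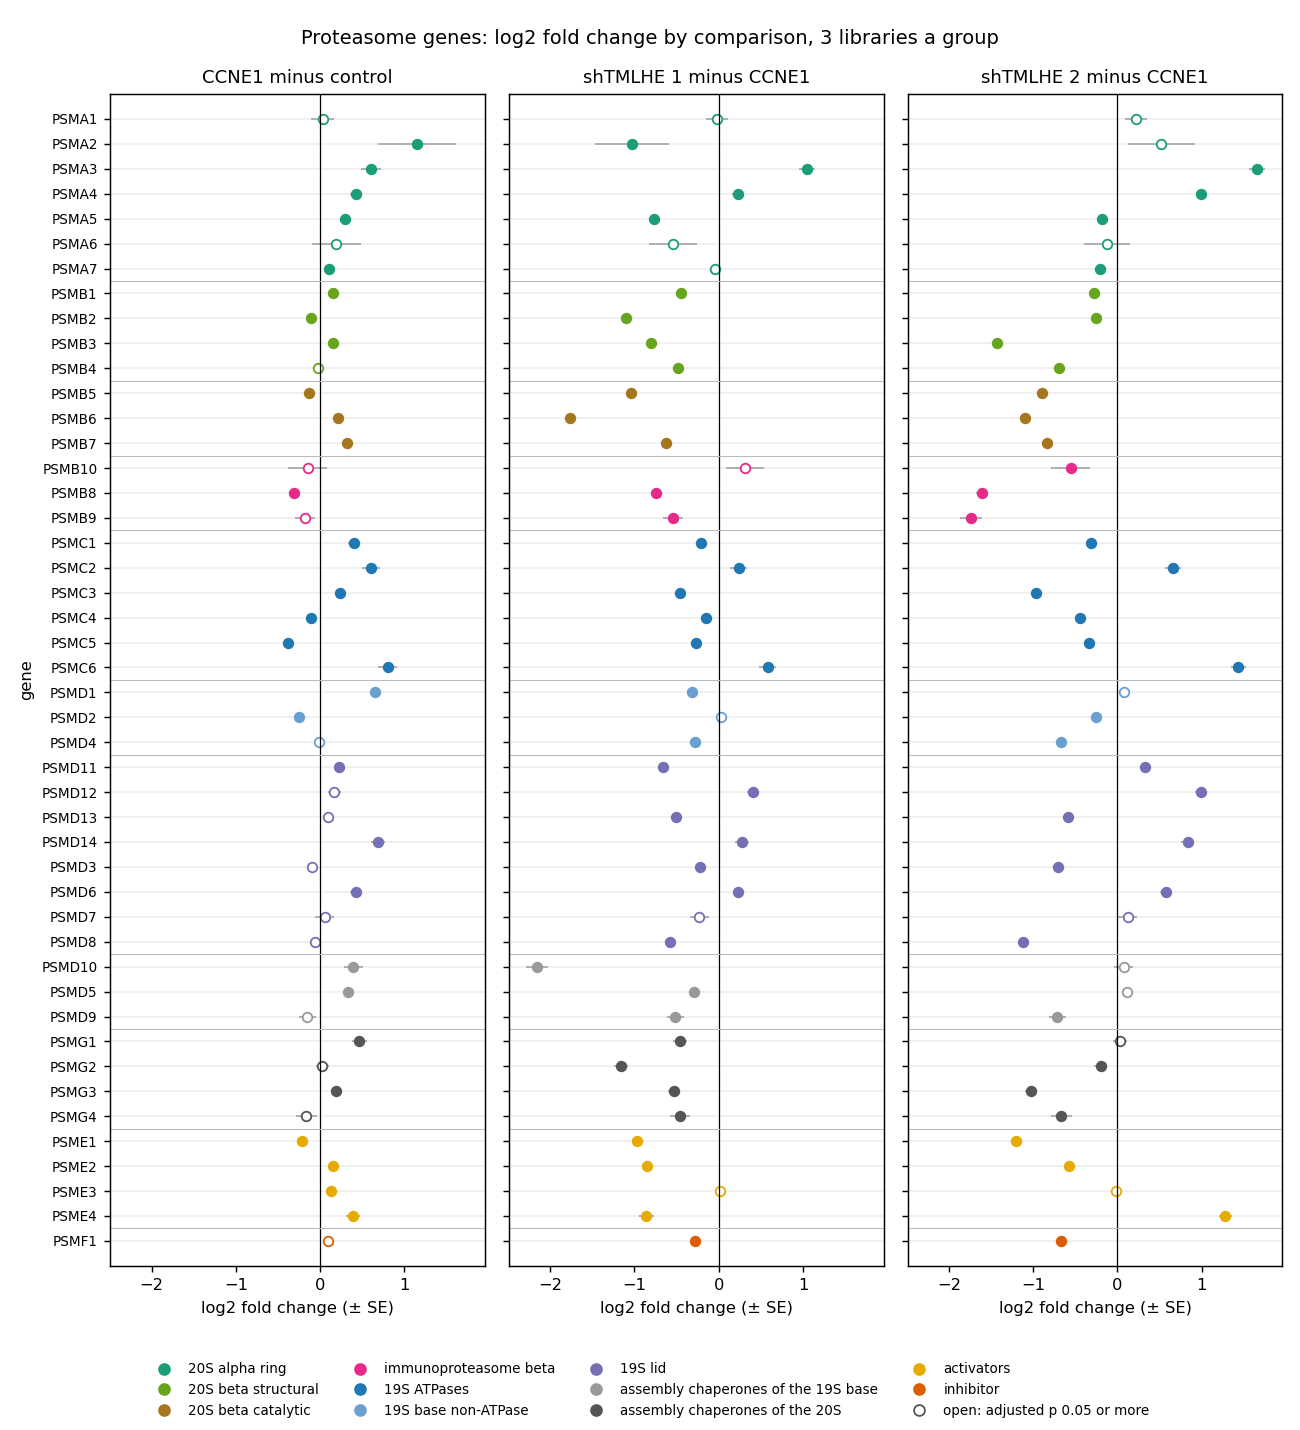
Log2 fold changes of the 46 tested proteasome genes (points, with their standard error) in the 3 comparisons, grouped by role, with 3 libraries in each group. Filled points passed an adjusted p of 0.05: 24 genes were higher and 7 lower with CCNE1, 7 higher and 32 lower with shTMLHE 1, and 9 higher and 28 lower with shTMLHE 2.

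Each hairpin group was then set against CCNE1 overexpression alone, to ask what changed when TMLHE was lowered. The hairpin comparisons share the 3 CCNE1 libraries, so they are not independent of each other. With shTMLHE 1, 32 of 46 members were lower and 7 higher (all genes: 60.7% called, 30.3% lower and 30.4% higher). With shTMLHE 2, 28 were lower and 9 higher (all genes: 73.0% called, 36.2% lower and 36.8% higher). The members' median log2 fold change was -0.46 and -0.27, beside 0.03 for all genes in both comparisons. On this TMM scale 25 members were lower with both hairpins, 7 were higher with both, and 4 were called with neither (PSME3, PSMD7, PSMA1 and PSMA6). The share of all genes called alike with both hairpins on this scale alone was not counted. With total counts PSME3 (0.41 and 0.52) and PSMA1 (0.37 and 0.75) were called as higher with both, and PSMD7 (0.65) with shTMLHE 2. With the trend over GC content and gene length removed, PSMA6 was called as lower with both (-1.13 and -1.26) and PSME3 with shTMLHE 2 (-0.12). Scaled by total counts, the members split into 18 higher and 16 lower with shTMLHE 1, and 25 higher and 14 lower with shTMLHE 2. The calls that survived all 5 scalings were therefore counted too. With shTMLHE 1 they were 1 higher and 16 lower, beside 19.2% and 15.8% of all genes, and with shTMLHE 2 they were 4 higher and 14 lower, beside 19.8% and 18.5%. Lower with both hairpins under every scaling were 8 members: PSMB3, PSMB4, PSMB5, PSMB6, PSMB7, PSMB8, PSMD8 and PSME1. Higher with both under every scaling was PSMA3. The shares of all tested genes that met the same conditions were 10.7% and 11.6%.

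The inner rings of the barrel held most of these genes. All 7 constitutive β genes, PSMB1 to PSMB7, were lower with both hairpins on the TMM scale, and PSMB3 to PSMB7 were lower under every scaling. With total counts PSMB1 and PSMB2 turned with shTMLHE 2 (0.25 and 0.27), and PSMB1 was not called with shTMLHE 1 (-0.06, adjusted p = 0.270).

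PSMB6, which carries the caspase-like site, had the largest fall of the core with shTMLHE 1. It read 317, 319 and 300.2 CPM with CCNE1, 89.9, 87.7 and 97.0 with shTMLHE 1 and 152, 149 and 135 with shTMLHE 2. The groups do not overlap, and the control libraries (285, 261 and 258) lay between CCNE1 and the hairpins. The log2 fold changes were -1.77 ± 0.05 (adjusted p = 1.91e-28) and -1.10 ± 0.05 (adjusted p = 7.41e-23), and -1.38 and -0.57 with total counts.

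PSMB5, the chymotrypsin-like site and the main target of proteasome inhibitor drugs, read 386, 383 and 371 CPM with CCNE1. It fell to 174, 182 and 198 with shTMLHE 1 (log2 fold change -1.04 ± 0.04, adjusted p = 6.39e-24) and to 205, 204 and 207 with shTMLHE 2 (-0.89 ± 0.04, adjusted p = 2.33e-22). PSMB7, the trypsin-like site, read 620, 614 and 598 CPM with CCNE1, the highest of its 4 groups. It was at 390, 395 and 404 with shTMLHE 1 (-0.62 ± 0.03, adjusted p = 3.57e-19) and at 333, 354 and 343 with shTMLHE 2 (-0.83 ± 0.03, adjusted p = 1.45e-23), below the control libraries at 488, 488 and 491.

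Among the β subunits without a cutting site, PSMB3 fell most with shTMLHE 2. Its libraries read 304, 342 and 333 CPM with CCNE1, 190, 187 and 184 with shTMLHE 1 (-0.80 ± 0.04, adjusted p = 2.14e-19) and 122, 125 and 117 with shTMLHE 2 (-1.43 ± 0.04, adjusted p = 1.14e-27). PSMB2 showed the reverse order of hairpins, with 184 ± 7.89 CPM with CCNE1, 85.6 ± 3.66 with shTMLHE 1 and 154 ± 0.611 with shTMLHE 2. PSMB4 went from 328 ± 5.25 to 234 ± 4.59 and 202 ± 1.33 CPM, and PSMB1 from 194 ± 11.1 to 143 ± 4.65 and 160 ± 4.13.

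On the TMM scale the α ring was split. Of its 7 genes 2 were higher and 2 lower with each hairpin. Its median log2 fold change was -0.05 with shTMLHE 1 and 0.22 with shTMLHE 2, against -1.04 and -0.89 for the catalytic β genes. With total counts all but PSMA6 (0.41, adjusted p = 0.178) were called as higher with shTMLHE 2. With shTMLHE 1 total counts called PSMA1, PSMA3, PSMA4 and PSMA7 as higher and PSMA5 as lower. With the trend removed PSMA3 and PSMA7 were higher and PSMA5 and PSMA6 lower with both hairpins. PSMA3 read 21.0, 17.1 and 21.3 CPM with CCNE1, 43.9, 38.8 and 39.4 with shTMLHE 1 and 60.4, 62.8 and 63.8 with shTMLHE 2. All hairpin libraries stood above all CCNE1 and control libraries (9.93 to 14.7). The log2 fold changes of PSMA3 were 1.05 ± 0.10 (adjusted p = 5.21e-12) and 1.66 ± 0.10 (adjusted p = 1.61e-18), and 0.52 and 0.55 after removal of the trend over GC content and length.

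PSMA4 rose from 50.2 ± 2.51 CPM to 58.8 ± 1.67 with shTMLHE 1 and 100.3 ± 3.53 with shTMLHE 2. With the trend removed the first of these was -0.14 (adjusted p = 0.0563) and the second 0.23 (adjusted p = 0.000843). PSMA5 went the other way, from 172 ± 3.05 CPM to 100.4 ± 1.57 with shTMLHE 1 (-0.77 ± 0.04, adjusted p = 1.51e-18) and 151 ± 3.20 with shTMLHE 2 (-0.19 ± 0.04, adjusted p = 0.000133), the latter turning to 0.34 with total counts. PSMA7, the most abundant α transcript per kilobase, was at 317 CPM (305 to 326) with CCNE1. It was at 307 ± 8.95 with shTMLHE 1 and 274 ± 5.62 with shTMLHE 2. PSMA7 was instead called as higher with both hairpins with total counts (0.35 and 0.32) and with the trend removed (0.22 and 0.38). PSMA2 was at 0.548, 0.664 and 0.968 CPM with shTMLHE 1 (-1.03 ± 0.44, adjusted p = 0.0413), a call lost with total counts (-0.64, adjusted p = 0.198), without CCNE1 replicate 2 (-0.81, adjusted p = 0.146) and on leaving out any of 5 other libraries.

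**Figure D2:**
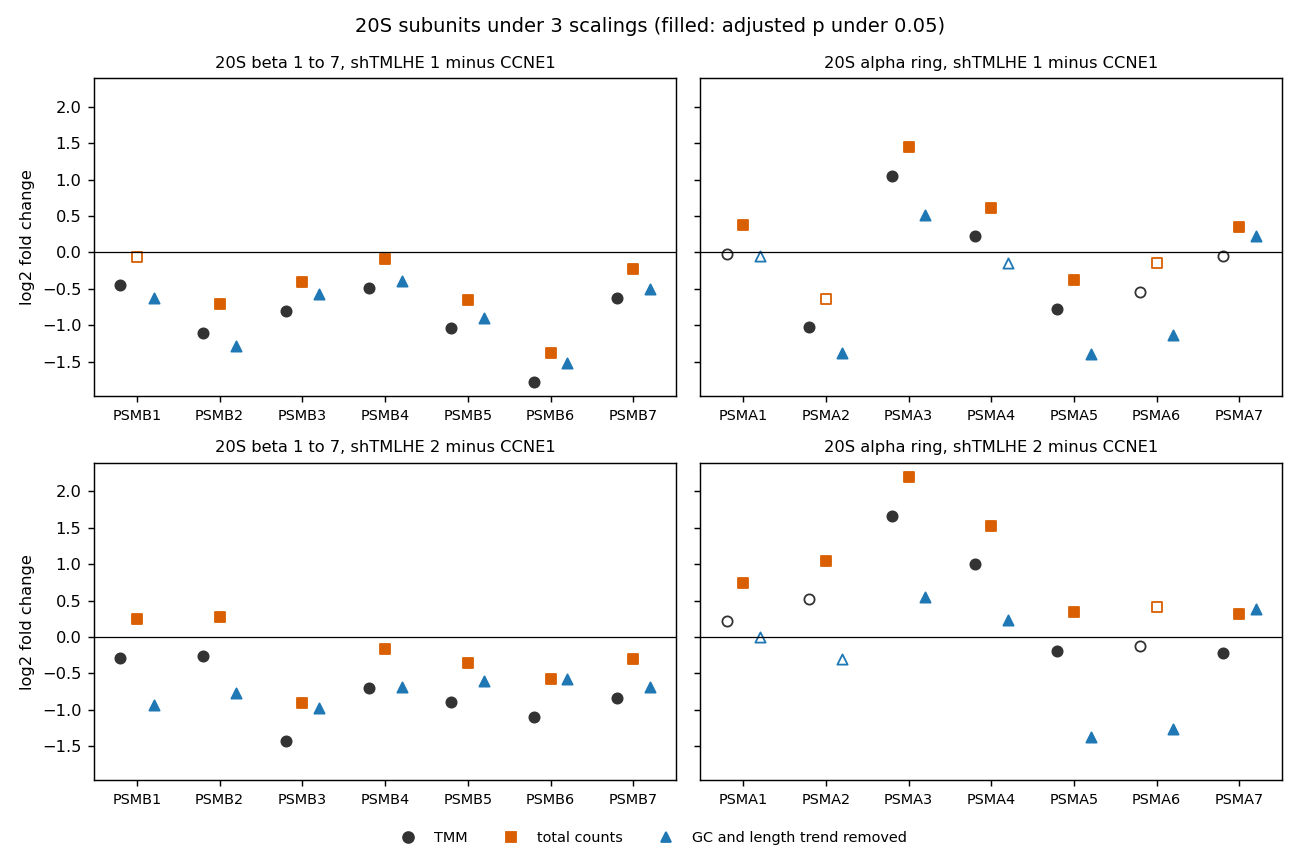
Log2 fold changes of the β (left) and α (right) genes of the 20S core for shTMLHE 1 (top) and shTMLHE 2 (bottom) against CCNE1, under TMM, total counts and TMM without the trend over GC content and length. Filled marks passed an adjusted p of 0.05: PSMB3 to PSMB7 lie below 0 in every panel and scaling, and PSMA3 lies above 0 in all of them.

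The inducible catalytic genes were each below their constitutive counterparts. In control PSMB8 was at 34.6 CPM per kilobase, PSMB9 at 9.14 and PSMB10 at 2.70, against 236, 185 and 274 for PSMB5, PSMB6 and PSMB7. Together the inducible genes took 0.0118 ± 4.86e-05% of all counts in control, 0.00960 ± 0.000457% with CCNE1, 0.00810 ± 0.000281% with shTMLHE 1 and 0.00465 ± 0.000247% with shTMLHE 2. These shares, which amount to scaling by total counts, do not overlap between groups. On the TMM scale the sums also stepped down, from 137 ± 0.808 CPM in control to 113 ± 5.29, 72.7 ± 2.11 and 37.96 ± 1.92. PSMB8 and PSMB9 lie in the class II region of the major histocompatibility complex, and their annotated spans overlap (GRCh38, GENCODE 29). PSMB8 is at chr6:32840717-32844703 on the minus strand and PSMB9 at chr6:32844136-32859585 on the plus strand. PSMB10 lies at chr16:67934502-67937087 on the minus strand.

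PSMB8, the inducible counterpart of PSMB5, read 53.4, 51.6 and 45.3 CPM with shTMLHE 1 and 27.6, 29.2 and 25.4 with shTMLHE 2, after 81.1 to 86.2 with CCNE1. It stepped down from control through to shTMLHE 2 with no overlap between any groups. Its log2 fold changes were -0.74 ± 0.06 (adjusted p = 6.19e-13) and -1.61 ± 0.07 (adjusted p = 4.97e-23), and -0.35 and -1.08 with total counts. PSMB9, the counterpart of PSMB6, read 27.5, 22.6 and 24.6 CPM with CCNE1, 17.1, 14.4 and 19.5 with shTMLHE 1 and 6.33, 7.63 and 8.53 with shTMLHE 2. That was -0.55 ± 0.12 (adjusted p = 0.000147), which total counts bring to -0.15 (adjusted p = 0.264), and -1.74 ± 0.13 (adjusted p = 3.87e-15), which stays called under every scaling.

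PSMB10, the counterpart of PSMB7, rests on 59 to 109 counts per library. It read 5.90, 3.41 and 4.37 CPM with CCNE1, 4.60, 6.03 and 6.23 with shTMLHE 1 and 2.59, 3.34 and 3.31 with shTMLHE 2. The CCNE1 libraries overlap those with shTMLHE 1 (0.31 ± 0.23, adjusted p = 0.236). PSMB10 was, however, called as higher with shTMLHE 1 with total counts (0.71, adjusted p = 0.00645) and with the trend removed (0.78, adjusted p = 0.00332). The fall with shTMLHE 2 (-0.56 ± 0.24, adjusted p = 0.0329) was lost without CCNE1 replicate 1 (-0.34, adjusted p = 0.232) or shTMLHE 2 replicate 1 (-0.44, adjusted p = 0.150), and with total counts (-0.03, adjusted p = 0.917). Between the hairpins all 3 inducible genes were higher with shTMLHE 1, by 0.87 ± 0.07 for PSMB8, 1.19 ± 0.13 for PSMB9 and 0.87 ± 0.23 for PSMB10. For PSMB10 that difference was 0.35 (adjusted p = 0.214) with the trend removed.

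The balance of inducible to constitutive subunits was read as a ratio within each library, per kilobase, which no single factor per library can move. PSMB9 over PSMB6 was 4.94 ± 0.479% in control, 3.76 ± 0.388% with CCNE1, 8.73 ± 0.882% with shTMLHE 1 and 2.45 ± 0.506% with shTMLHE 2. The hairpin groups therefore lay on opposite sides of CCNE1, with single libraries at 7.76% to 9.47% and at 1.96% to 2.97%. PSMB8 over PSMB5 was 14.7 ± 0.602% in control, 12.97 ± 0.633% with CCNE1, 16.1 ± 2.34% with shTMLHE 1, where 1 library (13.5%) fell within the CCNE1 range, and 7.86 ± 0.592% with shTMLHE 2. PSMB10 over PSMB7 was 0.988 ± 0.0725%, 0.719 ± 0.192%, 1.37 ± 0.197% and 0.864 ± 0.0988% in the same order. In the exact two-sided permutation test on the log2 ratios, p was 0.1 for 10 of 12 comparisons (0.12 adjusted over the 12), the smallest that 3 against 3 libraries allow, so none could pass 0.05. The pair of comparisons with a larger p were PSMB8 over PSMB5 with shTMLHE 1 (exact permutation p = 0.2) and PSMB10 over PSMB7 with shTMLHE 2 (exact permutation p = 0.3). Removal of the trend over GC content and length does move the ratios. With shTMLHE 2 the fitted log2 difference of PSMB9 over PSMB6 went from -0.64 to -1.30 and that of PSMB10 over PSMB7 from 0.27 to 1.11, while no ratio changed sign in any comparison.

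**Figure D3:**
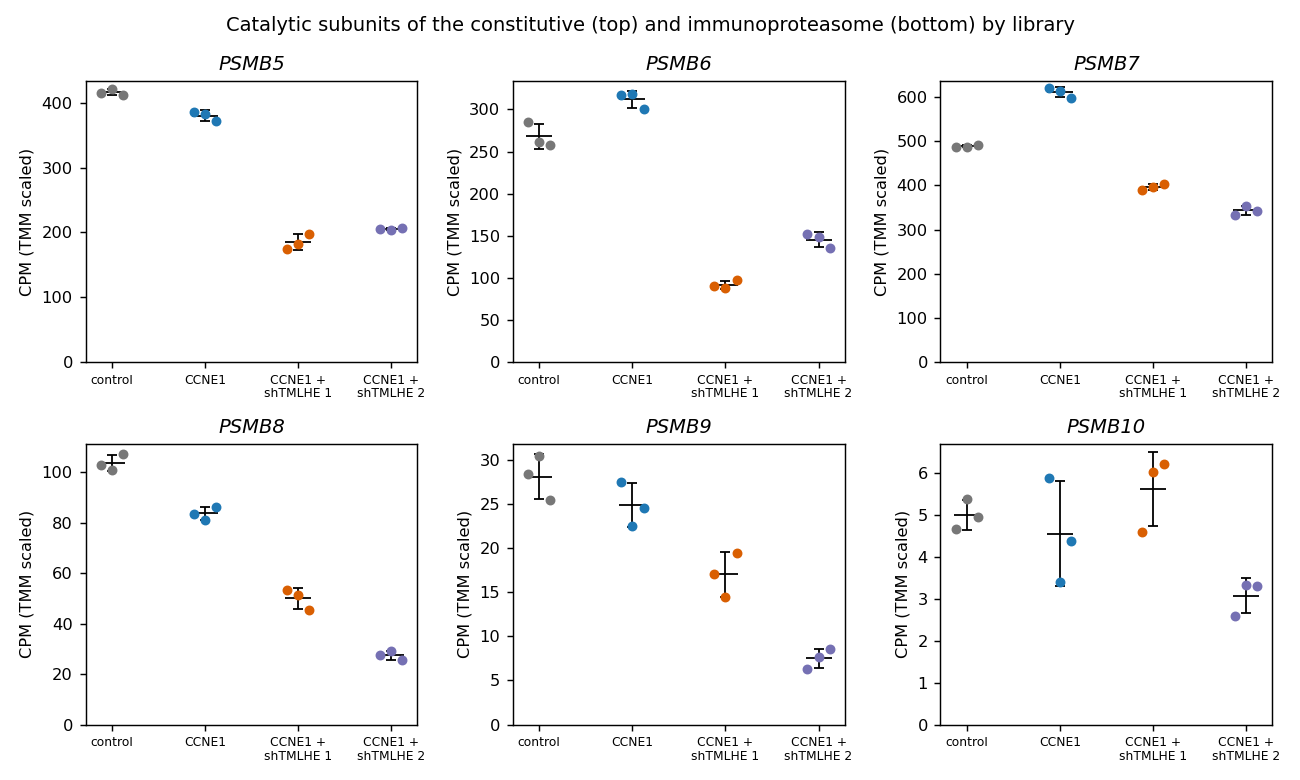
CPM of the 3 constitutive catalytic genes (top) and the 3 inducible ones (bottom) in each of the 12 libraries, with the mean and SD of each group. PSMB8 steps down from about 104 CPM in control to 27.4 with shTMLHE 2, while the lowest group of PSMB5 and PSMB6 is shTMLHE 1.

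The regulatory particle was split between its subunits. Of its 17 genes 10 were lower and 5 higher with shTMLHE 1, and 9 lower and 6 higher with shTMLHE 2, with medians of -0.23 and -0.25. Called the same way with both hairpins under every scaling was 1 of them, the lid gene PSMD8. It read 358, 339 and 331 CPM with CCNE1, 222, 216 and 248 with shTMLHE 1 (-0.58 ± 0.05, adjusted p = 1.67e-13) and 160, 148 and 163 with shTMLHE 2 (-1.12 ± 0.05, adjusted p = 6.83e-22), with no overlap.

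Among the 6 ATPases, which form the ring that pulls substrates in, PSMC2 and PSMC6 were higher and PSMC1, PSMC3, PSMC4 and PSMC5 lower with both hairpins on the TMM scale. With total counts PSMC1 was at 0.19 and 0.22, PSMC4 at 0.24 and 0.08 and PSMC5 at 0.13 and 0.20, all called as higher except PSMC4 with shTMLHE 2 (adjusted p = 0.0956). PSMC6 read 36.5, 33.7 and 30.9 CPM with shTMLHE 1 and 62.1, 59.0 and 62.5 with shTMLHE 2, all above its CCNE1 libraries. Its log2 fold changes were 0.58 ± 0.10 (adjusted p = 2.49e-06) and 1.44 ± 0.09 (adjusted p = 8.15e-17), but -0.02 (adjusted p = 0.881) and 0.32 (adjusted p = 0.00216) with the trend removed. PSMC2 went from 22.5 ± 2.17 to 26.5 ± 0.953 and 35.5 ± 1.00 CPM, and with the trend removed to -0.16 and -0.26. Its rise with shTMLHE 1 was also lost without CCNE1 replicate 3 (0.16, adjusted p = 0.199). PSMC3 fell from 380 ± 11.6 CPM to 277 ± 11.9 and 195 ± 4.47. Its log2 fold change was -0.46 ± 0.04 with shTMLHE 1, where total counts gave -0.06 (adjusted p = 0.115), and -0.96 ± 0.04 with shTMLHE 2.

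In the base, PSMD2 stayed between 866 and 907 CPM in the CCNE1 and shTMLHE 1 libraries and was at 741, 727 and 741 with shTMLHE 2 (-0.25 ± 0.03, adjusted p = 1.23e-09), a fall that total counts turn to 0.27. PSMD4, a ubiquitin receptor, went from 176 ± 11.6 to 145 ± 8.48 and 110.4 ± 3.53 CPM. Of the 8 lid genes 3 were higher with shTMLHE 1 and 4 with shTMLHE 2. PSMD12, a lid scaffold, read 35.3, 41.2 and 39.5 CPM with CCNE1, 51.9, 50.9 and 50.8 with shTMLHE 1 (0.40 ± 0.07, adjusted p = 9.12e-06) and 76.3, 75.9 and 79.9 with shTMLHE 2 (1.00 ± 0.07, adjusted p = 1.07e-15). PSMD14 reached 47.6 ± 1.14 and 70.2 ± 2.55 CPM and PSMD6 65.9 ± 2.28 and 83.6 ± 2.6. These rises were not seen with the trend removed, where PSMD12 was at -0.15 and -0.11, PSMD14 at -0.89 and -0.98 and PSMD6 at -0.46 and -0.64. PSMD3 and PSMD13 were lower with both hairpins, from 295 ± 19.7 to 252 ± 13.4 and 180 ± 6.47 CPM and from 240 ± 7.15 to 170 ± 6.95 and 159 ± 2.97 CPM, and total counts turned PSMD3 with shTMLHE 1 to 0.17 and brought PSMD13 with shTMLHE 2 to -0.06 (adjusted p = 0.164). Total counts also turned PSMD4 with shTMLHE 1 to 0.11.

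Among the factors that help build the particle, the chaperones of the 20S, PSMG1 to PSMG4, were all lower with shTMLHE 1 on the TMM scale, and 3 of 4 with shTMLHE 2. With total counts only PSMG2 was still called as lower with shTMLHE 1, while PSMG1 (-0.07, adjusted p = 0.490), PSMG3 (-0.14, adjusted p = 0.0631) and PSMG4 (-0.07, adjusted p = 0.648) were not. With shTMLHE 2 only PSMG3 was then lower (-0.50), PSMG1 (0.55) and PSMG2 (0.33) were called as higher, and PSMG4 was not called (-0.14, adjusted p = 0.307). PSMG2, which forms a pair with PSMG1 to guide the α ring, read 48.7, 45.8 and 54.7 CPM with CCNE1 and 23.4, 21.2 and 22.0 with shTMLHE 1 (-1.16 ± 0.08, adjusted p = 2.52e-15). With shTMLHE 2 it read 46.9, 42.2 and 40.4, which overlaps CCNE1 (-0.20 ± 0.08, adjusted p = 0.0189) and was not called without CCNE1 replicate 3 (-0.13, adjusted p = 0.170). PSMG3 went from 74.0 ± 6.41 to 51.1 ± 1.48 and 36.2 ± 0.953 CPM, and was at -0.13 (adjusted p = 0.0894) with shTMLHE 1 once the trend was removed.

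The chaperones of the 19S base, PSMD5, PSMD9 and PSMD10, were all lower with shTMLHE 1 on the TMM scale, and PSMD9 alone of them with shTMLHE 2. Total counts turned PSMD5 with shTMLHE 1 to 0.10 (adjusted p = 0.169) and ended the calls of PSMD9 with both hairpins (-0.12 and -0.18, adjusted p = 0.295 and 0.101). PSMD10, also known as gankyrin, had the largest change of any member against CCNE1. It read 24.8, 22.6 and 28.6 CPM with CCNE1, 6.68, 4.81 and 5.51 with shTMLHE 1 and 27.2, 25.4 and 27.3 with shTMLHE 2. Only the shTMLHE 1 libraries stood apart, also from control (17.7 to 21.3). The log2 fold change with shTMLHE 1 was -2.16 ± 0.13 (adjusted p = 1.60e-17), a 4.46-fold fall, and lay between -1.76 and -2.30 under total counts and with the trend removed. With shTMLHE 2 it was 0.07 ± 0.11 (adjusted p = 0.556), but 0.60 (adjusted p = 6.69e-06) with total counts and -0.51 (adjusted p = 7.69e-05) with the trend removed.

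Among the alternative caps, PSME1 and PSME2, whose products form the cap induced by interferon, were lower with both hairpins. PSME1 read 268, 270.1 and 282 CPM with CCNE1, 137, 134 and 148 with shTMLHE 1 (-0.97 ± 0.04, adjusted p = 3.84e-22) and 115, 122 and 118 with shTMLHE 2 (-1.21 ± 0.04, adjusted p = 1.13e-25). All hairpin libraries lay below all CCNE1 and control libraries. PSME2 read 124, 129 and 110 CPM with CCNE1, 64.5 to 70.9 with shTMLHE 1 (-0.86 ± 0.06, adjusted p = 1.95e-16) and 82.0, 81.6 and 78.9 with shTMLHE 2 (-0.58 ± 0.05, adjusted p = 3.17e-12). With total counts PSME2 was at -0.46 and at -0.05 (adjusted p = 0.400), while PSME1 kept both calls. PSME3, the nuclear cap, was at 277 ± 7.86 CPM with CCNE1, 279 ± 6.53 with shTMLHE 1 and 274 ± 8.90 with shTMLHE 2. On the TMM scale PSME3 passed the test with neither, while total counts called it as higher with both (0.41 and 0.52). PSMF1, which encodes an inhibitor of the core, went from 282 ± 5.99 to 232 ± 8.43 and 178 ± 4.43 CPM, and total counts turned the first of these to 0.11.

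PSME4, the large single-chain cap of the nucleus, and PSMD11 of the lid moved in opposite directions with the hairpins. PSME4 read 38.4, 36.6 and 46.0 CPM with CCNE1, 23.3, 23.3 and 19.9 with shTMLHE 1 and 100.3, 90.0 and 103 with shTMLHE 2, so that the groups do not overlap. The log2 fold changes were -0.86 ± 0.09 (adjusted p = 3.22e-11) and 1.28 ± 0.08 (adjusted p = 6.82e-18). PSMD11 read 120, 123 and 108 CPM with CCNE1, 74.3, 75.4 and 71.6 with shTMLHE 1 (-0.66 ± 0.05, adjusted p = 1.37e-13) and 151, 144 and 145 with shTMLHE 2 (0.32 ± 0.05, adjusted p = 6.84e-07). With the trend removed the rise of PSMD11 with shTMLHE 2 was 0.04 (adjusted p = 0.504) and that of PSME4 0.32 (adjusted p = 0.000193).

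The hairpin groups were also compared directly, since hairpins to the same gene would be the usual check of each other. Of 46 members 16 were higher and 22 lower with shTMLHE 1 than with shTMLHE 2, beside 31.3% and 29.0% of all genes (60.3% called in all), and the median was -0.16 beside -0.01. The lowest values were those of PSMD10 (-2.23 ± 0.13, adjusted p = 3.65e-18), PSME4 (-2.14 ± 0.08, adjusted p = 1.15e-23) and PSMA2 (-1.55 ± 0.42, adjusted p = 0.00165), and the highest that of PSMB9 (1.19 ± 0.13, adjusted p = 3.11e-10). Under every scaling 8 members were higher and 12 lower, beside 17.0% and 16.2% of all genes.

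**Figure D4:**
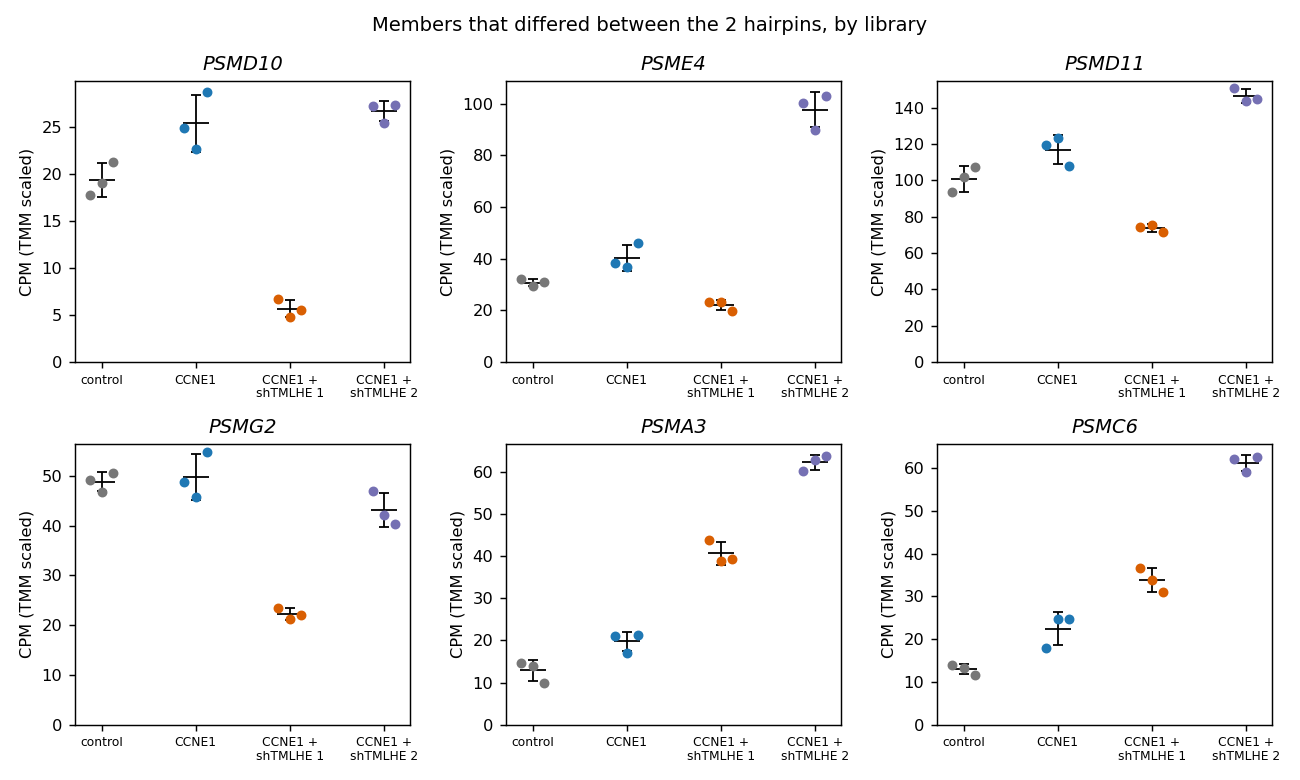
CPM in each of the 12 libraries, with the mean and SD of each group, for 6 members that differed between the hairpins. On this TMM scale PSMD10 and PSMG2 are lowest with shTMLHE 1, PSME4 and PSMD11 are lowest with shTMLHE 1 and highest with shTMLHE 2, and PSMA3 and PSMC6 are above CCNE1 with both hairpins, PSMC6 not so with shTMLHE 1 once the trend is removed.

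Core and regulatory particle were compared by the ratio of their summed counts within each library, which no single factor per library can move. The core sum was 83.9 ± 1.49% of the regulatory sum in control, 93.0 ± 0.874% with CCNE1, 68.1 ± 0.336% with shTMLHE 1 and 78.8 ± 1.00% with shTMLHE 2, with no overlap between groups. As shares of all counts, the sums move with the scaling. The 14 core genes took 0.243% to 0.251% in the CCNE1 libraries, 0.204% to 0.207% with shTMLHE 1 and 0.235% to 0.240% with shTMLHE 2. The 17 regulatory genes took 0.262% to 0.268%, 0.300% to 0.306% and 0.300% to 0.303%. So the core share was lower and the regulatory share higher in every hairpin library than in every CCNE1 library. On the TMM scale the regulatory sum turned the other way, from 3132 ± 47.8 CPM with CCNE1 to 2712 ± 48.5 and 2463 ± 19.7, and the core sum went from 2913 ± 54.3 to 1846 ± 25.2 and 1939.6 ± 18.4. In control the shares were 0.230 ± 0.00318% and 0.274 ± 0.00229%, so with CCNE1 the core share was higher and the regulatory share lower. These are sums led by the most counted genes, and no test was made of them. By gene, the core median was -0.58 with shTMLHE 1 and -0.24 with shTMLHE 2, and that of the regulatory particle -0.23 and -0.25.

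GC content of the transcript went along with these changes. The mean GC content of the libraries, weighted by counts, was 52.9 ± 0.0518% with CCNE1, 51.8 ± 0.144% with shTMLHE 1 and 49.96 ± 0.0615% with shTMLHE 2. Across the 46 members, which share the libraries and are not independent replicates, Pearson's correlation of log2 fold change with GC content was -0.62 for CCNE1 against control, -0.25 with shTMLHE 1 and -0.74 with shTMLHE 2. Across all genes it was -0.26, -0.34 and -0.60. With shTMLHE 2, the 28 members under 50% GC were split into 9 higher and 10 lower, while all 18 members at 50% or more were lower. Among all genes 57.4% were higher and 14.7% lower under 50% GC, and 13.3% and 60.8% at 50% or more. All 7 members that were higher with both hairpins had under 50% GC. With the trend over GC content and length removed, 3 members were higher and 33 lower with shTMLHE 1, and 5 higher and 31 lower with shTMLHE 2. The shares of all genes were then 22.8% higher and 33.8% lower, and 26.9% and 36.3%. The members' medians were -0.47 and -0.50 beside -0.07 and -0.09 for all genes, those of the core -0.60 and -0.65, and those of the regulatory particle -0.29 and -0.39. What part GC content has in each change was not tested.

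**Figure D5:**
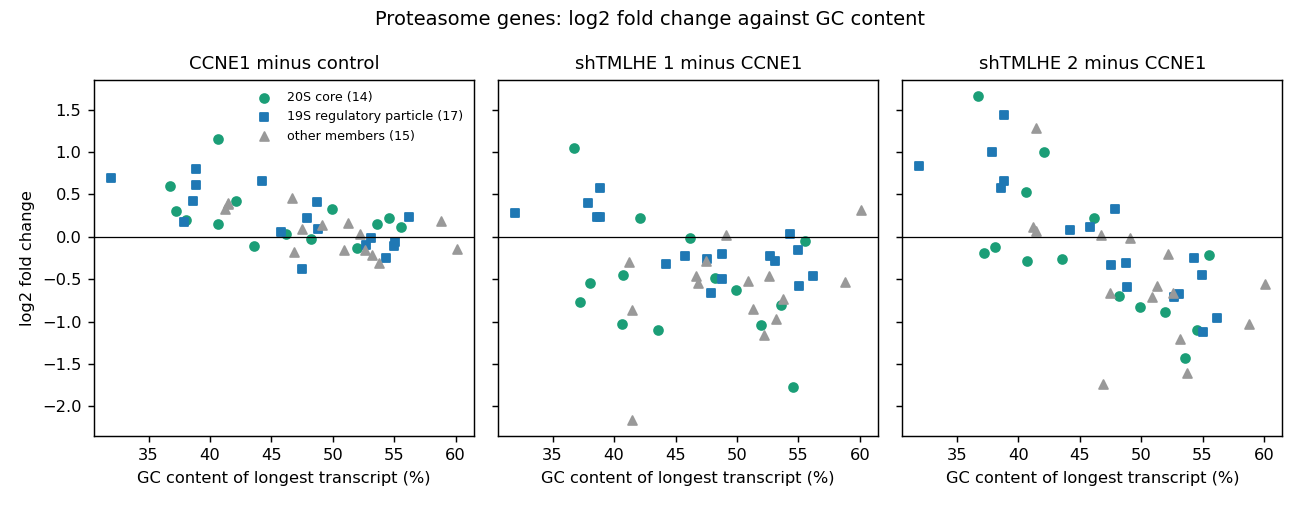
Log2 fold change of the 46 tested members against the GC content of their longest transcript, for the 3 comparisons, with core genes as circles, regulatory particle genes as squares and the others as triangles. The points slope down in the left and right panels, and with shTMLHE 2 no member at 50% GC or more lies above 0.

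Genes that work with the proteasome were followed on lists that are given with their counts. The transcription of proteasome genes is set by NFE2L1, a factor that stays inactive in the endoplasmic reticulum membrane until NGLY1 removes its sugars and the protease DDI2 cuts it. With CCNE1, NFE2L1 fell from 176 ± 6.91 to 111 ± 5.49 CPM (-0.66 ± 0.05, adjusted p = 1.27e-14), and it was at 162 ± 5.85 with shTMLHE 1 (0.55 ± 0.05, adjusted p = 3.17e-13) and 154 ± 4.20 with shTMLHE 2 (0.48 ± 0.05, adjusted p = 6.02e-12). DDI2 rose from 8.19 ± 1.48 CPM to 20.7 ± 0.897 and 32.8 ± 1.40 (1.32 ± 0.13 and 1.99 ± 0.12, adjusted p = 1.03e-11 and 1.68e-17). NFE2L1 and DDI2 were called as higher with both hairpins also with total counts and with the trend removed, whereas NGLY1 (0.35 and 0.58) turned to -0.49 and -0.83 with the trend removed. All 3 genes of this list were thus higher with both hairpins on the TMM scale. Lower with both under every scaling were 8 of 46 proteasome genes, beside 10.7% of all genes. A link between these genes and this list was not tested. On the TMM scale 25 of 46 proteasome genes were lower with both hairpins. Among all tested genes 30.3% were lower with shTMLHE 1 and 36.2% with shTMLHE 2, and the share lower with both on that scale was not counted.

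Of 10 genes for proteins that bind or help assemble the proteasome, 3 were higher and 3 lower with shTMLHE 1, and 7 higher and 2 lower with shTMLHE 2. POMP, the maturation factor of the 20S, was at 48.8 ± 3.30, 65.9 ± 2.61 and 85.8 ± 4.32 CPM with CCNE1, shTMLHE 1 and shTMLHE 2, and its log2 fold changes (0.43 and 0.81) turned to -0.12 and -0.39 with the trend removed. PAAF1, which holds back 19S ATPases during assembly, fell at each step, from 50.5 ± 4.45 in control to 36.3 ± 2.09, 21.1 ± 1.79 and 14.5 ± 0.814 CPM, and was lower under every scaling shown for it. UBE3C, a ubiquitin ligase on the proteasome, rose from 98.9 ± 4.27 to 197 ± 2.11 and 133 ± 2.47 CPM (0.99 ± 0.05 and 0.42 ± 0.05), and the second was 0.02 (adjusted p = 0.688) with the trend removed. USP14, a deubiquitinase of the cap, was lower with shTMLHE 1 (-0.26 ± 0.06) and higher with shTMLHE 2 (0.83 ± 0.06), and both turned in 1 of these other scalings.

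For the supply of ubiquitin, 4 of 5 tested genes were lower and 1 higher with both hairpins. UBA6, an activating enzyme, went from 19.3 ± 2.83 to 47.0 ± 2.75 and 68.1 ± 0.449 CPM (1.27 ± 0.09 and 1.81 ± 0.09). With the trend removed these changes were smaller, 0.28 (adjusted p = 0.00580) and 0.24 (adjusted p = 0.0145). UBB is listed at 0 in all control, CCNE1 and shTMLHE 1 libraries, which is no measure of its expression, since how reads that match several genes were counted is not known. Of the 8 shuttle and extraction genes 4 were higher and 3 lower with shTMLHE 1, and 2 higher and 5 lower with shTMLHE 2.

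The immunoproteasome serves the loading of class I molecules, and 12 genes of that route and of its control were counted. With CCNE1 5 were lower and 1 higher, with shTMLHE 1 3 were lower and 7 higher, and with shTMLHE 2 7 were lower and 5 higher. TAP1, which shares its promoter region with PSMB9, went from 91.7 ± 1.61 CPM in control to 60.0 ± 1.45 with CCNE1 (-0.61 ± 0.06, adjusted p = 6.07e-11), 53.3 ± 2.72 with shTMLHE 1 and 42.3 ± 0.727 with shTMLHE 2. The hairpin differences of TAP1 (-0.17 and -0.51) were 0.22 and 0.02 with total counts. HLA-B was lower with CCNE1 (896 ± 15.2 to 566 ± 20.2 CPM, -0.66 ± 0.03, adjusted p = 9.07e-19), higher with shTMLHE 1 (755 ± 29.9, 0.42 ± 0.03) and lower with shTMLHE 2 (464 ± 6.21, -0.29 ± 0.03), and the last of these turned to 0.24 with total counts. IRF1, a factor that switches on PSMB9 and TAP1 after interferon, was higher with both hairpins (1.12 ± 0.12 and 0.63 ± 0.12). IRF1 kept both calls with total counts and with the trend removed. PSMB8 was lower in the same libraries in which IRF1 was higher.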

How the data were processed

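Gene counts of 12 Ovcar8 RNA libraries were analysed. The deposited counts are whole numbers per gene that the authors made without normalization. The tools named per the submitters' processing notes are STAR (2.6.1) and DESeq2, with the build GRCh38. No counting program or strand setting is named there. The deposited FPKM hold a scaling by the authors (0.827 to 1.22 times FPKM made from totals) and served as an alternative.

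Counts were tested in R 4.3.3 with edgeR 4.0.16: filterByExpr by group (15378 genes kept, 43357 left out), TMM, and a robust quasi-likelihood fit over all 12 libraries with 8 residual degrees of freedom. Benjamini-Hochberg adjustment ran over all tested genes, with a threshold of 0.05. CPM use TMM-scaled library sizes, and an SE is the log2 fold change divided by the root of its F statistic. Gene positions, GC content and shared 50-base windows come from GENCODE 29, whose exon lengths equalled the deposited gene lengths for 100% of genes. Trends over GC content and length were splines with 5 degrees of freedom per library. The 5 scalings are TMM, DESeq2 size factors, upper quartile, total counts and TMM with that trend removed. Other alternatives were 2 low-count filters, DESeq2 1.42.0, limma 3.58.1 (voom, and trend on log2 of FPKM plus 0.1 or 1), fits of the compared groups alone, a stricter threshold of 0.01, the replicate number as a block, and each library left out. Leaving out the 9 members that share 20% or more of their windows was added after the data were seen.

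Named in full were PSMB5 to PSMB10, the 3 largest rises and falls among called members per comparison, and members called in opposite directions by the hairpins. Other members are named to account for their groups, and up to 4 genes per other list by smallest p, with further ones chosen after their values were seen. The members and lists were chosen with earlier results of these data known.

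Replicates of a group differed by more than counting noise (chi-square per degree of freedom 2.09 to 5.62). On simulated counts for CCNE1 against control (14911 genes, 200 changed by a factor of 2), 76% of changed genes were recovered and 5.59% of calls were false. All other genes were simulated with the same mean in every group and no shift with GC content, whereas 44.2% of genes were called in the data. The simulation therefore does not cover the effect of scaling between libraries or of GC content. Counting error and floors cover sequencing depth only. No library was left out.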

Additional observations from a re-analysis of the deposited data

Results flagged for a closer look

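By the edgeR test of shTMLHE 1 minus shTMLHE 2, 16 of 46 members were higher and 22 lower with shTMLHE 1. The 5 given here differed by at least 1 on the log2 scale or were called in opposite directions. PSMD10 differed by -2.23 (-2.16 with shTMLHE 1 and 0.07 with shTMLHE 2, adjusted p = 3.65e-18). PSME4 differed by -2.14 (-0.86 and 1.28, adjusted p = 1.15e-23) and PSMD11 by -0.99 (-0.66 and 0.32, adjusted p = 5.70e-19), both with opposite signs. PSMA2 differed by -1.55 (-1.03 and 0.52, adjusted p = 0.00165) on 5 to 52 counts per library. PSMB9 differed by 1.19 (-0.55 and -1.74, adjusted p = 3.11e-10). The cause of these differences was not tested.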

How the results depend on the processing

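Member counts depended on scaling between libraries. With total counts 18 members were higher and 16 lower with shTMLHE 1, and 25 and 14 with shTMLHE 2. With the GC and length trend removed 3 were higher with shTMLHE 1 and 5 with shTMLHE 2, and 13 were lower with shTMLHE 1 than with shTMLHE 2. Other settings kept these counts within 1.5 times, and leaving out the 9 members with shared sequence gave 21 higher and 6 lower, 6 and 28, 8 and 24, and 14 and 19 in the order of the comparisons.

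Signs turned with the trend removed for CCNE1 against control in PSMB5 (0.040), PSMD8 (0.14), PSMB1 (-0.15), PSMA5 (-0.15), PSMD4 (0.17), PSMC4 (0.094) and PSMD12 (-0.27). With shTMLHE 1 they turned in PSMA7 (0.22), PSMC4 (0.025), PSMA4 (-0.14), PSMC2 (-0.16), PSMD6 (-0.46), PSMD14 (-0.89), PSMD12 (-0.15) and PSMC6 (-0.018). With shTMLHE 2 they turned in PSMD2 (0.0069), PSMA7 (0.38), PSMC4 (0.041), PSMD1 (-0.40), PSMC2 (-0.26), PSMD6 (-0.64), PSMD5 (-0.62), PSMD14 (-0.98), PSMD12 (-0.11), PSMD10 (-0.51) and PSMB10 (0.43). Between the hairpins they turned in PSMD2 (-0.00093), PSMA7 (-0.16), PSMB1 (0.31), PSMC4 (-0.016), PSMC2 (0.10), PSMD6 (0.18), PSMD5 (0.033) and PSMD14 (0.091). With total counts signs turned for shTMLHE 1 in PSMD3 (0.17), PSMA7 (0.35), PSMF1 (0.11), PSMD4 (0.11), PSMC5 (0.13), PSMC4 (0.24), PSMD1 (0.074), PSMD5 (0.10), PSMC1 (0.19) and PSMA1 (0.37). For shTMLHE 2 they turned in PSMD2 (0.27), PSMA7 (0.32), PSME3 (0.52, and 0.10 with the upper quartile), PSMB1 (0.25), PSMB2 (0.27), PSMA5 (0.34), PSMC5 (0.20), PSMC4 (0.080), PSMC1 (0.22) and PSMG2 (0.33), and between the hairpins in PSME3 (-0.11). By construction these settings move all genes or genes of like GC content together. The cause of the remaining differences was not tested.

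Leaving out each library in turn gave 21 to 26 higher and 5 to 7 lower members for CCNE1, 6 to 7 and 31 to 33 for shTMLHE 1, 9 to 10 and 27 to 28 for shTMLHE 2, and 16 to 19 and 22 to 23 between the hairpins. Calls lost without at least 1 library were those of PSMA2, PSMA7, PSMB1, PSMB2, PSMC4, PSMD10, PSME2 and PSMG3 for CCNE1, PSMA2 and PSMC2 for shTMLHE 1, and PSMB10 and PSMG2 for shTMLHE 2. Replicate numbers did not pair the libraries (18 pairs with the same number, correlations of deviations -0.047 to 0.021). With the number as a block 23 members were higher and 5 lower for CCNE1, 7 and 31 for shTMLHE 1, 9 and 28 for shTMLHE 2, and 16 and 22 between the hairpins. Among tested members, depth limits PSMA2 (5 to 52 counts), PSMA6 (29 to 71) and PSMB10 (59 to 109).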
